A study of Mus musculus with 12 samples.

Results

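The 10 genes described here encode the proteins that modify, fold and crosslink procollagen chains: the prolyl 4-hydroxylase subunits P4ha1 and P4ha2, the prolyl 3-hydroxylation complex of P3h1, Crtap and Ppib, the lysyl hydroxylases Plod1 and Plod2, the chaperones Serpinh1 and Fkbp10, and the lysyl oxidase Lox. They were chosen by gene symbol, and all 10 were found, out of 49315 genes in the count table and 17408 in the table that carries gene names. All 10 passed the filter on low counts. Their RNA was measured by bulk sequencing of femoral shafts, which are mainly cortical bone, in male mice aged 12 weeks. The 4 groups were catalase knockout (Cat -/-) mice given ethanol (libraries 4 to 6), Cat -/- mice given phosphate-buffered saline (PBS, libraries 1 to 3), wild-type (Cat +/+) mice given ethanol (libraries 10 to 12) and Cat +/+ mice given PBS (libraries 7 to 9). Ethanol was gavaged once a day for 4 days at 3, 3, 4 and 4.5 g per kg of body weight, drawn from a 31.5% (v/v) solution, and PBS was given in the same volume. The mice were killed 6 hours after the last gavage and the marrow was spun out of the femurs. Each library held RNA pooled from 2 mice, so every p-value measures the spread between pools.

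Procollagen chains are modified in the endoplasmic reticulum (ER) while they are still single strands. Prolyl 4-hydroxylation stabilises the triple helix, 3-hydroxylation of a few prolines is carried out by a complex that also assists folding, and hydroxylation of lysines decides which crosslinks the finished fibril can form. After secretion, lysyl oxidase converts lysines and hydroxylysines to the aldehydes from which crosslinks grow. In bone these steps act mostly on type I collagen, the product of Col1a1 and Col1a2, and in humans recessive forms of osteogenesis imperfecta are caused by loss of CRTAP, P3H1, PPIB, SERPINH1 or FKBP10.

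Library totals ran from 19950222 to 28789308 counts. Values are given as CPM, counts of a gene scaled to a common library size, and each of the 10 genes had at least 291 counts in every library. Cat, the gene that was knocked out, averaged 71.6 ± 2.58 CPM in KO ethanol and 67.5 ± 2.22 CPM in KO PBS libraries, against 160.4 ± 14.4 CPM in WT ethanol and 152 ± 23.4 CPM in WT PBS libraries (SD, n = 3 each), and no KO library overlapped a WT library. Cat reads were thus still counted in every KO library. The labels name no allele, and whether these reads lie in the disrupted part is not known here, so the counts separate the genotypes but do not show how complete the knockout was. All 9 osteoblast markers were detected in every library, while 9 chondrocyte markers together made up at most 0.00361% of counts, with Matn1 and Matn3 at 0 in 3 libraries each. The collagen gene Col2a1 is not among these 9 and had 63.0 to 302 CPM, so they do not measure cartilage transcripts as a whole. Libraries 8 and 9 (WT PBS) and library 12 (WT ethanol) stood apart by their skeletal muscle transcripts: 16 muscle markers took 3.09%, 3.51% and 3.70% of their counts, against 0.138% to 1.97% in the other 9 libraries. The tests of the averaged ethanol effect are given with and without these 3 libraries, also for the related genes. The WT and KO ethanol effects without them are summarised. For the knockout comparisons and the interaction without them, medians of the 10 genes are given. Statements on which libraries overlap use all 12.

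Per kilobase of annotated exon, Serpinh1 had the highest level of the 10 genes in each of the 12 libraries, at 140.1 ± 47.1 CPM per kb (SD over all 12 libraries). It encodes HSP47, the ER chaperone that binds folded procollagen. Ppib (31.6 ± 1.57 CPM per kb), Crtap (27.5 ± 5.26), Plod2 (26.8 ± 6.67), Fkbp10 (26.7 ± 6.37) and Lox (24.7 ± 7.97) followed, and these 5 exchanged ranks 2 to 6 from library to library. P4ha1 ranked 7 in every library at 17.3 ± 4.28 CPM per kb. Plod1 (9.13 ± 0.820) and P3h1 (9.12 ± 2.04) exchanged ranks 8 and 9, and P4ha2 was the lowest in every library at 3.51 ± 0.965 CPM per kb. Among the prolyl 4-hydroxylase subunits the level of P4ha1 therefore exceeded that of P4ha2, and among the lysyl hydroxylases the level of Plod2 exceeded that of Plod1, in each of the 12 libraries. The exon lengths include untranslated sequence from all annotated transcripts, so the order depends on the annotation.

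**Figure D1:**
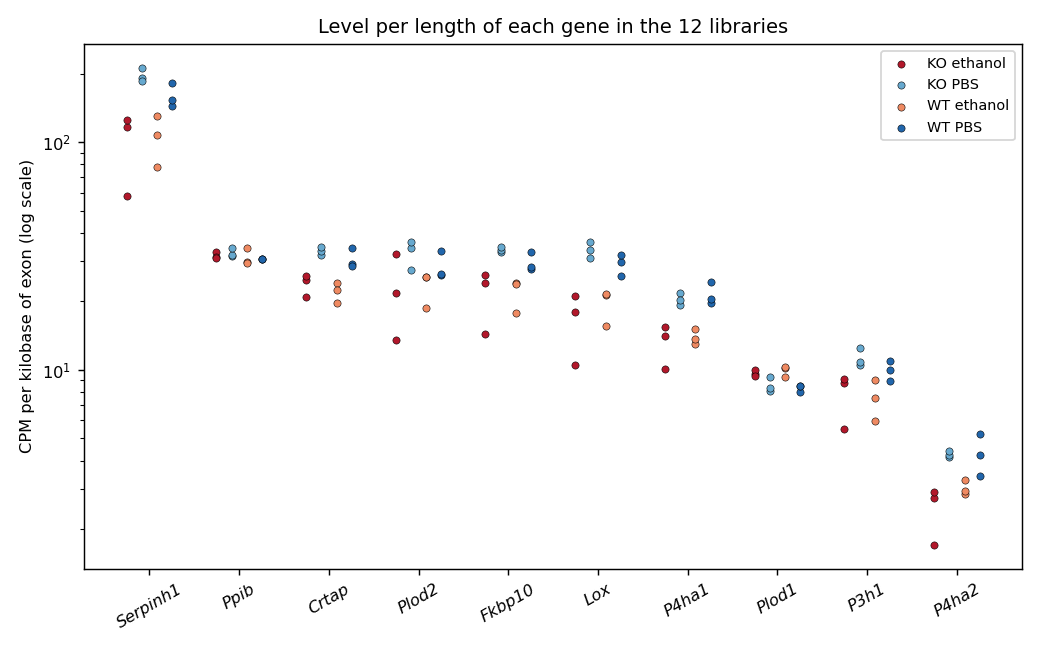
Level of each gene per kilobase of annotated exon (CPM per kb, log axis) in the 12 libraries, coloured by group. Serpinh1 lies above every other gene and P4ha2 below, with 5 genes sharing the range just above P4ha1.

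Ethanol moved most of these genes down and 1 of them up. With the effect averaged over both genotypes, 7 of the 10 genes passed an adjusted p under 0.05 in edgeR's quasi-likelihood test, against 10.8% of the 18161 genes tested. The 6 that fell were P4ha1, P4ha2, Crtap, Serpinh1, Fkbp10 and Lox, against 5.81% of all genes called lower. Plod1 was the 1 that rose, against 5.02% of all genes called higher. The levels of P3h1 and Plod2 were lower without passing the threshold, and Ppib differed by -0.0088 on the log2 scale. The median log2 fold change of the 10 genes was -0.51, and the median over all genes tested was -0.0088. Of the 6 genes that fell, each had all 6 ethanol libraries below all 6 PBS libraries, a separation seen in that direction for 3.83% of genes. None of the 10 genes had all 6 ethanol libraries above all 6 PBS libraries (2.9% of all genes did). Within each genotype taken alone, the same 6 genes were separated downward in both KO and WT (5.46% of all genes) and Plod1 upward in both (4.16%). In bulk tissue, fewer cells of a type and less RNA per cell cannot be told apart, and this holds for every difference below.

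**Figure D2:**
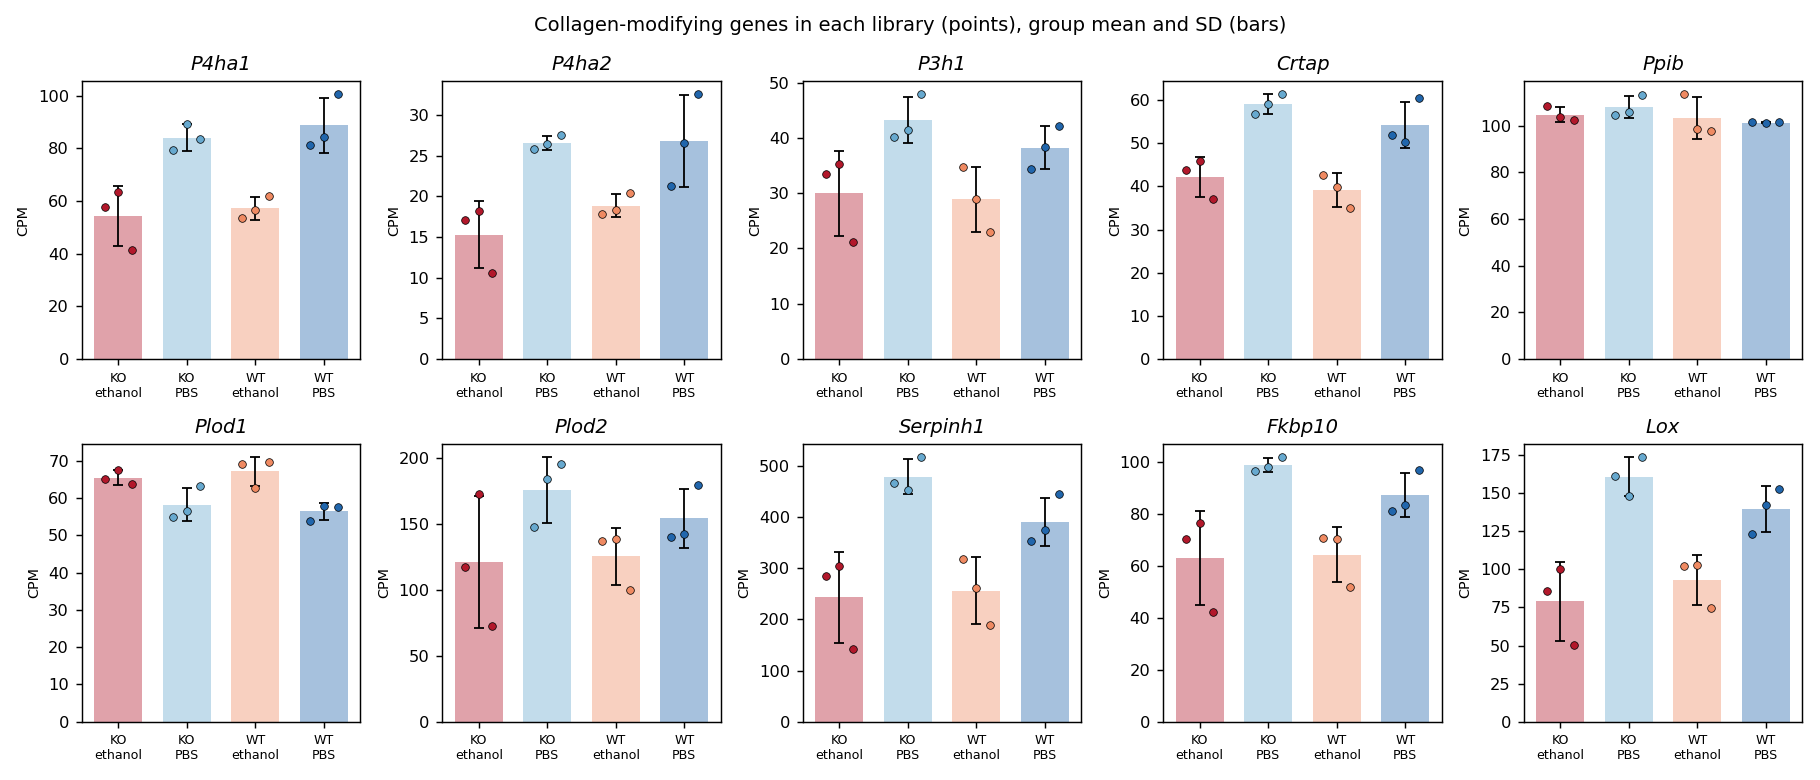
CPM of the 10 genes in each library (points) with the group mean (bar) and SD (error bar), n = 3 libraries per group. Ethanol libraries lie below PBS libraries of the same genotype for 6 genes and above them for Plod1, while Ppib is at 97.6 to 114 CPM in all 12 libraries.

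Promoter windows of the called genes are shown here because these genes moved together after ethanol, and Plod1 is included for its opposite direction. Each window runs from 250 bases before to 50 bases after the RefSeq start on build GRCm38.p6, read 5′ to 3′ on the gene's strand. The positions are chr10:59323046-59323345 (plus strand) for P4ha1, chr11:54100674-54100973 (plus) for P4ha2, chr9:114390663-114390962 (minus) for Crtap, chr7:99353190-99353489 (minus) for Serpinh1 and chr4:147936727-147937026 (minus) for Plod1. Capitals mark every match, on either strand, to the hypoxia response element cores ACGTG and GCGTG, to the CCAAT box and to the TATA motif TATAAA. No match overlaps another.
P4ha1: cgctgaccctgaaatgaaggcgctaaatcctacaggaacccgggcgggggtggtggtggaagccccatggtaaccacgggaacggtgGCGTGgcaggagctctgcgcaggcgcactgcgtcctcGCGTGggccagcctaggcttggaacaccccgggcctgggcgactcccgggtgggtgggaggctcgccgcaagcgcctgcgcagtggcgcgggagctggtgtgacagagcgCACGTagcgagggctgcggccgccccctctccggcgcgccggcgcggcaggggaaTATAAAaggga
P4ha2: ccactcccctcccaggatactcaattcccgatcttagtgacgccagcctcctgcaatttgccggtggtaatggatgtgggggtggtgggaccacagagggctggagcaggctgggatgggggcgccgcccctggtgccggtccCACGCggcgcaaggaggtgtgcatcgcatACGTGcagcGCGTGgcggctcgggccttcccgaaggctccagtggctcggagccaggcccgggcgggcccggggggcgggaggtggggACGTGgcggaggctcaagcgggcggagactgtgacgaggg
Crtap: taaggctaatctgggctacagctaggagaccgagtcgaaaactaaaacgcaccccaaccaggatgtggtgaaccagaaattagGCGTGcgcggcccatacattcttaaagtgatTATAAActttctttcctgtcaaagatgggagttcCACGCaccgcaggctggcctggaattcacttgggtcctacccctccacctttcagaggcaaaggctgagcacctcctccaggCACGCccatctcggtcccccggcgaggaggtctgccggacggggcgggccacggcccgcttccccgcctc
Serpinh1: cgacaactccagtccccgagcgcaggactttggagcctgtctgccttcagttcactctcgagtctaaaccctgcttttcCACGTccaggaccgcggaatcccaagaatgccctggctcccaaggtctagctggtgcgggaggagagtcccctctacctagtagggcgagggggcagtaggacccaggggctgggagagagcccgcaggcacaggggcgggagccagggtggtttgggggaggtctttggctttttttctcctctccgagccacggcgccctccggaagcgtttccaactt
Plod1: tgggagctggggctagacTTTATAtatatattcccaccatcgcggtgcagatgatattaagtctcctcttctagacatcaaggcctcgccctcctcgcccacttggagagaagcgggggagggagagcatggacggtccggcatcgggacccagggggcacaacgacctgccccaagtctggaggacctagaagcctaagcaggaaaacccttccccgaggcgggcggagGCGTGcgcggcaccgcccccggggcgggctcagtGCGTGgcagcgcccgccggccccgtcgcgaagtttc
Counting the RefSeq start as +1, the P4ha1 window held GCGTG at -163 and -126, ACGTG at -16 and TATAAA at +40. The P4ha2 window held GCGTG at -107 and -69 and ACGTG at -78 and +11. The Crtap window held GCGTG at -167, -102 and -20 and TATAAA at -136, the Plod1 window held GCGTG at -20 and +15 and TATAAA at -232, and the Serpinh1 window held 1 match, ACGTG at -171. All 5 windows thus held ACGTG or GCGTG, as did 43.8% of 32851 mouse promoter windows of the same length, and the 1 gene that rose did not differ from the 4 that fell in this. CCAAT was in none of these 5 windows and in 37.4% of all windows, and TATAAA was in 13.6% of all windows. Windows of the uncalled genes Ppib and P3h1 were searched too but are not printed. The Ppib window held 2 matches to the first hypoxia core and 5 to the second, and each P3h1 window held 2 core matches. These unprinted windows also held the box absent from the 5 printed ones, and none held the TATA motif. Every window searched thus held a hypoxia core, and of the uncalled genes P3h1 was also lower after ethanol. Whether these cores bear on the changes was not tested. All of these are letter matches in a fixed window and show no binding. The P4ha2 window lies inside the annotated gene, which begins at chr11:54100095. Fkbp10 and Lox are named only.

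The genes of the prolyl 4-hydroxylase catalytic subunits, P4ha1 and P4ha2, both fell after ethanol. P4ha1 had 57.9, 63.3 and 41.5 CPM in KO ethanol libraries, against 79.5, 89.4 and 83.3 CPM in KO PBS libraries. It had 53.4, 56.5 and 62.0 CPM in WT ethanol libraries, against 81.2, 84.3 and 100.5 CPM in WT PBS libraries. Every ethanol library was below every PBS library, with library 6 the lowest of all. Averaged over genotypes, P4ha1 had a log2 fold change of -0.63 (SE 0.097, adjusted p = 0.00352), a fold of 0.646 (95% interval 0.557 to 0.749).

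P4ha2 encodes the less abundant isoform of the same subunit. It had 17.1, 18.2 and 10.6 CPM in KO ethanol libraries, against 25.8, 26.5 and 27.5 CPM in KO PBS libraries. In WT it had 17.8, 18.3 and 20.4 CPM in ethanol libraries, against 21.3, 26.5 and 32.6 CPM in PBS libraries. The groups did not overlap, although the highest WT ethanol library and the lowest WT PBS library were close. The averaged log2 fold change was -0.65 (SE 0.13, adjusted p = 0.0126), a fold of 0.636 (95% interval 0.519 to 0.781). Without libraries 8, 9 and 12, P4ha1 remained called (log2 -0.59, adjusted p = 0.0475) and P4ha2 did not (log2 -0.51, adjusted p = 0.0999). The averaged effects of P4ha1 and P4ha2 were of nearly the same size, and the gene of their shared partner P4hb, which is the protein disulfide isomerase subunit of the enzyme, did not pass the test (log2 -0.11, adjusted p = 0.128).

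Of the genes of the prolyl 3-hydroxylation complex, 1 fell, 1 was lower short of the threshold and 1 differed by almost nothing. Crtap, the cartilage-associated protein that holds the complex together, had 43.9, 45.9 and 37.1 CPM in KO ethanol libraries, against 56.7, 59.2 and 61.3 CPM in KO PBS libraries. It had 42.7, 39.9 and 34.97 CPM in WT ethanol libraries, against 51.9, 50.4 and 60.5 CPM in WT PBS libraries. The separation was complete in both genotypes. Its averaged log2 fold change of -0.48 (SE 0.071, adjusted p = 0.00263, fold 0.719, 95% interval 0.646 to 0.801) had the smallest adjusted p of the 10 genes, and it remained called without libraries 8, 9 and 12 (log2 -0.40, adjusted p = 0.00713).

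P3h1, the hydroxylase of the complex, had 33.5, 35.3 and 21.2 CPM in KO ethanol libraries, against 40.2, 41.5 and 47.9 CPM in KO PBS libraries. In WT it had 34.8, 28.9 and 22.9 CPM in ethanol libraries, against 34.3, 38.3 and 42.1 CPM in PBS libraries. The KO groups did not overlap, and in WT the highest ethanol library passed the lowest PBS library. The averaged log2 fold change was -0.47 (SE 0.14, adjusted p = 0.0545), which passed at an adjusted p of 0.0494 without library 5 and of 0.0390 without library 10. The value was -0.31 without libraries 8, 9 and 12 (adjusted p = 0.362).

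Ppib, cyclophilin B, is the peptidyl-prolyl isomerase of the complex and also serves proteins other than collagen. It had 108, 104 and 102 CPM in KO ethanol libraries, against 105, 106 and 113 CPM in KO PBS libraries. In WT it had 114, 98.5 and 97.6 CPM in ethanol libraries, against 101, 101 and 101 CPM in PBS libraries. Ethanol and PBS libraries overlapped in both genotypes. Its averaged log2 fold change was -0.0088 (SE 0.046, adjusted p = 0.932), with a 95% interval of the fold from 0.927 to 1.07. With libraries 8, 9 and 12 left out it was 0.018 (adjusted p = 0.859). The exons of Ppib share 825 bases, 25.0% of their length, with Snx22 on the opposite strand. The strand setting of the authors' counting is not known here.

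Of the lysyl hydroxylases, Plod1 rose and Plod2 was not called. Plod1, which hydroxylates lysines in the triple helix, had 65.0, 67.6 and 63.8 CPM in KO ethanol libraries, against 54.8, 56.6 and 63.2 CPM in KO PBS libraries. It had 69.0, 62.7 and 69.7 CPM in WT ethanol libraries, against 53.9, 57.7 and 57.6 CPM in WT PBS libraries. Within each genotype the ethanol libraries were the higher ones, in KO by a small margin. The averaged log2 fold change was 0.21 (SE 0.047, adjusted p = 0.0171), a fold of 1.16 (95% interval 1.08 to 1.24). It was also called without libraries 8, 9 and 12 (log2 0.24, adjusted p = 0.0262), and without library 2 the adjusted p was 0.0526.

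Plod2, which hydroxylates lysines of the telopeptides outside the helix, had 117, 173 and 73.1 CPM in KO ethanol libraries, against 148, 184 and 196 CPM in KO PBS libraries. In WT it had 138, 139 and 100.4 CPM in ethanol libraries, against 140.3, 143 and 180.1 CPM in PBS libraries. The KO groups overlapped through library 5, and in WT the groups were just apart. Plod2 averaged 121 ± 50.2 CPM in KO ethanol and 176 ± 25.1 CPM in KO PBS libraries (SD, n = 3 each). The averaged log2 fold change was -0.42 (SE 0.20, adjusted p = 0.212), and without library 5 it was -0.59 with an adjusted p of 0.0478. Without libraries 8, 9 and 12 it was -0.27 (adjusted p = 0.630).

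Fkbp10 encodes FKBP65, the ER isomerase that telopeptide lysyl hydroxylation requires. It had 70.5, 76.3 and 42.3 CPM in KO ethanol libraries, against 96.6, 98.1 and 102 CPM in KO PBS libraries. In WT it had 70.7, 70.2 and 52.0 CPM in ethanol libraries, against 81.2, 83.4 and 96.9 CPM in PBS libraries. No ethanol library reached the lowest PBS library. On average over genotypes the log2 fold change was -0.54 (SE 0.14, adjusted p = 0.0346, fold 0.686, 95% interval 0.554 to 0.850). The call was lost when any 1 of libraries 1, 2, 3, 8, 9, 11 or 12 was left out (adjusted p 0.0503 to 0.0815) and without libraries 8, 9 and 12 together (log2 -0.42, adjusted p = 0.261). In those single omissions the log2 value ran from -0.58 to -0.48, and 1040 to 1957 of all genes were called, against 1967 with all 12 libraries. Fkbp10 shares 193 exon bases, 6.58% of its exon length, with Nt5c3b on the opposite strand.

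Serpinh1 and Lox had the largest averaged falls of the 10 genes. Serpinh1 had 284, 304 and 141 CPM in KO ethanol libraries, against 466, 452 and 518 CPM in KO PBS libraries. It had 319, 262 and 189 CPM in WT ethanol libraries, against 354, 375 and 444 CPM in WT PBS libraries. The groups did not overlap in either genotype, and library 6 was again the lowest. Averaged, Serpinh1 had a log2 fold change of -0.79 (SE 0.19, adjusted p = 0.0310), a fold of 0.578 (95% interval 0.428 to 0.780). In the fits without library 1, 2, 3, 8, 9, 11 or 12 the value ran from -0.81 to -0.70. In those fits 1040 to 1957 of all genes were called, against 1967 with all 12 libraries. Like that of Fkbp10, the call was lost when any 1 of libraries 1, 2, 3, 8, 9, 11 or 12 was left out (adjusted p 0.0529 to 0.0761), and without libraries 8, 9 and 12 together Serpinh1 had a log2 fold change of -0.62 (adjusted p = 0.235).

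Lox encodes the secreted copper enzyme that starts crosslinking. It had 85.9, 101 and 50.4 CPM in KO ethanol libraries, against 161, 148 and 174 CPM in KO PBS libraries. In WT it had 102, 103 and 74.4 CPM in ethanol libraries, against 123, 142 and 153 CPM in PBS libraries. All ethanol libraries were below all PBS libraries. Averaged, Lox had a log2 fold change of -0.80 (SE 0.16, adjusted p = 0.0128), a fold of 0.573 (95% interval 0.448 to 0.732). Lox stayed called whichever single library was left out, and without libraries 8, 9 and 12 it had a log2 fold change of -0.64 (adjusted p = 0.162).

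**Figure D3:**
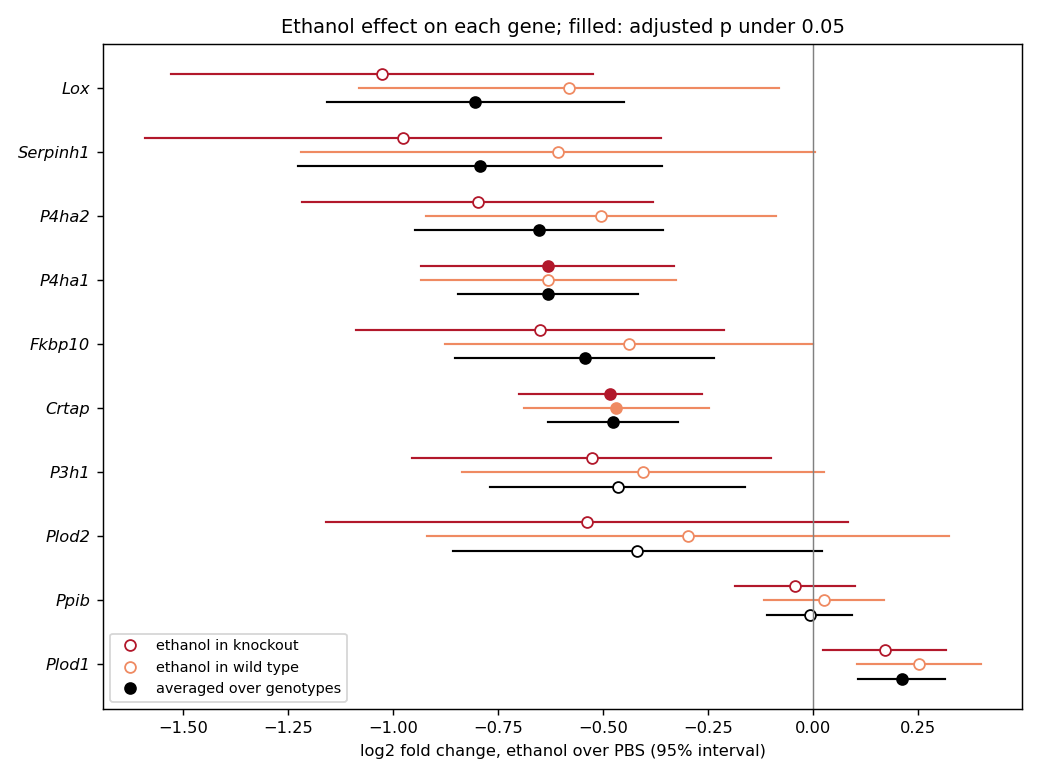
Log2 fold change of each gene, ethanol over PBS, in KO, in WT and averaged over genotypes, with 95% intervals. Filled points passed an adjusted p under 0.05: 7 genes averaged, 2 in KO and 1 in WT.

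Taken 1 genotype at a time, fewer genes passed. In KO mice P4ha1 (log2 -0.63, SE 0.14, adjusted p = 0.0435) and Crtap (log2 -0.48, SE 0.10, adjusted p = 0.0344) fell after ethanol, 2 of 10 against 1.87% of all genes called in either direction and 0.903% called lower; none rose, against 0.964% called higher. Lox (log2 -1.03, adjusted p = 0.0524), P4ha2 (log2 -0.80, adjusted p = 0.0583) and Serpinh1 (log2 -0.98, adjusted p = 0.107) had larger log2 fold changes with larger errors. The 95% interval of the fold ran from 0.347 to 0.695 for Lox and from 0.332 to 0.778 for Serpinh1. Fkbp10 (log2 -0.65, adjusted p = 0.128), Plod2 (log2 -0.54, adjusted p = 0.383), P3h1 (log2 -0.53, adjusted p = 0.198), Ppib (log2 -0.044, adjusted p = 0.833) and Plod1 (log2 0.17, adjusted p = 0.223) were not called. The KO ethanol and KO PBS libraries did not overlap for 7 of the 10 genes in the lower direction, where 16% of all genes were so separated, and for Plod1 in the higher direction, where 16.3% were. Library 6 was the lowest KO ethanol library for all 10 genes. Without it the KO calls of P4ha1 (log2 -0.47, adjusted p = 0.0856) and Crtap (log2 -0.40, adjusted p = 0.134) were lost. Leaving out library 1, 2, 3, 4 or 11 also ended both KO calls, with adjusted p from 0.0686 to 0.167 for P4ha1 and from 0.0534 to 0.147 for Crtap. Leaving out library 7, 8 or 10 ended that of P4ha1 (adjusted p 0.0519 to 0.0580). Over all genes, ethanol in KO called 339 with all 12 libraries and 71 without library 6. It called 52 to 256 without library 1, 2, 3, 4 or 11 and 351 to 376 without library 7, 8 or 10. Without libraries 8, 9 and 12, none of which is a KO library, the KO log2 values were -0.48 for Crtap, -0.80 for P4ha2 and -0.63 for P4ha1. In that fit, which leaves 1 WT PBS library, P4ha1 lost its KO call, P4ha2 gained one and Crtap kept its call. Far more of all genes were called in KO there than with all 12 libraries, so these calls are not comparable with those above.

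In WT mice Crtap fell after ethanol (log2 -0.47, SE 0.10, adjusted p = 0.0489), 1 of 10 against 1.26% of all genes called in either direction and 0.705% called lower; none rose, against 0.556% called higher. P4ha1 came next (log2 -0.63, SE 0.14, adjusted p = 0.0537). Serpinh1 (log2 -0.61, adjusted p = 0.315), Lox (log2 -0.58, adjusted p = 0.239), P4ha2 (log2 -0.51, adjusted p = 0.220), Fkbp10 (log2 -0.44, adjusted p = 0.312), P3h1 (log2 -0.40, adjusted p = 0.346), Plod2 (log2 -0.30, adjusted p = 0.657), Ppib (log2 0.026, adjusted p = 0.889) and Plod1 (log2 0.25, adjusted p = 0.0938) were not called. The libraries did not overlap for 7 genes in the lower direction, with Plod2 in and P3h1 out relative to the KO mice, where 9.06% of all genes were so separated, and for Plod1 in the higher direction, where 7.32% were. The WT call of Crtap was lost when any 1 library other than library 6 was left out (adjusted p 0.0517 to 0.132). Without library 6 P4ha1 was called (adjusted p = 0.0180). Over all genes, ethanol in WT called 229 with all 12 libraries, 265 without library 6 and 35 to 320 in the other single omissions. The log2 value of Crtap was -0.47 without library 1, 2, 3, 4 or 5, none of which is a WT library. Leaving out libraries 8, 9 and 12 leaves 1 WT PBS library, library 7, whose spread is assumed to be that of the other groups. Library 7 was the lowest WT PBS library for 8 of the 10 genes, and library 12 the lowest WT ethanol library for 7. The WT log2 value of Crtap was then -0.31, that of P4ha1 -0.55, Serpinh1 -0.27, Lox -0.25, P4ha2 -0.22, Fkbp10 -0.19, P3h1 -0.093, Plod2 -0.0076, Ppib 0.078 and Plod1 0.30.

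The difference between the genotypes' ethanol effects was tested as an interaction. None of the 10 genes was called, nor was any of the 18161 genes tested (0%), and none of the 10 had an unadjusted p under 0.05. The interaction term was below 0 for all 10 genes, from -0.44 for Lox to -0.0021 for P4ha1, and all 10 had an adjusted p of 1.0. The 95% intervals, which together span -1.23 to 0.64 on the log2 scale, are wide for the most variable genes: that of Serpinh1 ran from -1.23 to 0.49. For Crtap it ran from -0.32 to 0.29 and for Ppib from -0.27 to 0.13. DESeq2 also called 0 of the 10 genes.

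The knockout itself gave no called difference in these genes. Between KO PBS and WT PBS libraries the log2 fold changes ran from -0.077 for P4ha1 to 0.29 for Serpinh1, with adjusted p from 0.648 to 0.992, where 0.011% of all genes were called. Serpinh1 averaged 479 ± 34.4 CPM in KO PBS and 391 ± 47.6 CPM in WT PBS libraries (SD, n = 3 each), and Ppib 108 ± 4.65 CPM in KO PBS and 101 ± 0.155 CPM in WT PBS libraries. For these 2 genes every KO PBS library was above every WT PBS library, as was so for 8.98% of all genes, and none of the 10 was separated the other way (5.16% of all genes). The 95% intervals of the fold were 0.803 to 1.87 for Serpinh1 and 0.966 to 1.18 for Ppib. Between KO ethanol and WT ethanol libraries the values ran from -0.30 for P4ha2 to 0.11 for Crtap (adjusted p 0.820 to 0.978), again against 0.011% of all genes called, and all 10 genes overlapped, where 7.12% of all genes were separated upward and 4.04% downward. No gene of the 10 had an unadjusted p under 0.05 in either comparison, and DESeq2 called 0 in both.

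Type I collagen transcripts were also lower on average after ethanol. Col1a1 averaged 8072 ± 3234 CPM in KO ethanol and 17754 ± 1451 CPM in KO PBS libraries, and 8498 ± 2860 CPM in WT ethanol and 11931 ± 1505 CPM in WT PBS libraries (SD, n = 3 each). Averaged over genotypes it had a log2 fold change of -0.81 (SE 0.22, adjusted p = 0.0476). It was not called in KO (log2 -1.14, adjusted p = 0.108) or WT (log2 -0.49, adjusted p = 0.497) alone. Col1a2 averaged 8638 CPM in KO ethanol, 18093 in KO PBS, 9313 in WT ethanol and 12567 in WT PBS libraries. Only Col1a1 and Col5a3 of the fibrillar collagens below were called. Each gene was therefore also expressed as a percentage of the summed CPM of Col1a1 and Col1a2 in the same library, and ethanol was compared with PBS by an exact permutation test of 400 arrangements of libraries within genotypes, two-sided, with p-values adjusted over 18092 genes.

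On this scale the group averages of Serpinh1 and Lox differed little. Serpinh1 was 1.69%, 1.30% and 1.43% of collagen I CPM in KO ethanol libraries, against 1.43%, 1.26% and 1.33% in KO PBS libraries. It was 1.43%, 1.28% and 1.75% in WT ethanol libraries, against 1.62%, 1.62% and 1.56% in WT PBS libraries. The groups overlapped in both genotypes. The averaged log2 difference of the percentage was 0.0087 (95% interval -0.20 to 0.22, exact p = 0.930), a range that leaves room for a change of either sign. Lox was 0.511%, 0.429% and 0.509% in KO ethanol libraries, against 0.493%, 0.413% and 0.445% in KO PBS libraries. It was 0.460%, 0.503% and 0.689% in WT ethanol libraries, against 0.564%, 0.613% and 0.537% in WT PBS libraries. Its averaged log2 difference was 0.014 (95% interval -0.23 to 0.26, exact p = 0.885).

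Plod1, Ppib and Plod2 rose relative to collagen I, as most genes did. Plod1 was 0.387%, 0.288% and 0.645% of collagen I CPM in KO ethanol libraries, against 0.168%, 0.158% and 0.162% in KO PBS libraries, and 0.310%, 0.307% and 0.645% in WT ethanol libraries, against 0.246%, 0.249% and 0.202% in WT PBS libraries. Its averaged log2 difference of 1.06 and that of Ppib, 0.84, both had the smallest p the arrangements allow (exact p = 0.005, adjusted p = 0.0195). Plod2 had a log2 difference of 0.39 (exact p = 0.015, adjusted p = 0.0294). These 3 of 10 stand against 72% of all genes called higher relative to collagen I and 0.155% called lower. The median log2 difference over all genes was 0.84, so Ppib sat at the median of the transcriptome, Plod1 above it and Plod2 below it.

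The other genes did not pass relative to collagen I: P3h1 had a log2 difference of 0.36 (exact p = 0.045, adjusted p = 0.0593), Crtap 0.37 (exact p = 0.115), Fkbp10 0.28 (exact p = 0.075), P4ha1 0.21 (exact p = 0.380) and P4ha2 0.19 (exact p = 0.405). For P4ha1 the difference was 0.53 in KO and -0.11 in WT. Within 1 genotype the smallest p that 20 arrangements allow is 0.1, so no gene could pass there. Without libraries 8, 9 and 12 the log2 differences of Plod1, Ppib and Plod2 were 0.84, 0.62 and 0.29 and none was called (adjusted p 0.0860 to 0.108). All 3 calls also ended without library 2, 3 or 9 (adjusted p 0.0586 to 0.0725), those of Ppib and Plod2 without library 1 (adjusted p 0.0633 and 0.0583), and that of Plod2 without library 8 (adjusted p = 0.0534) or 12 (adjusted p = 0.0608).

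**Figure D4:**
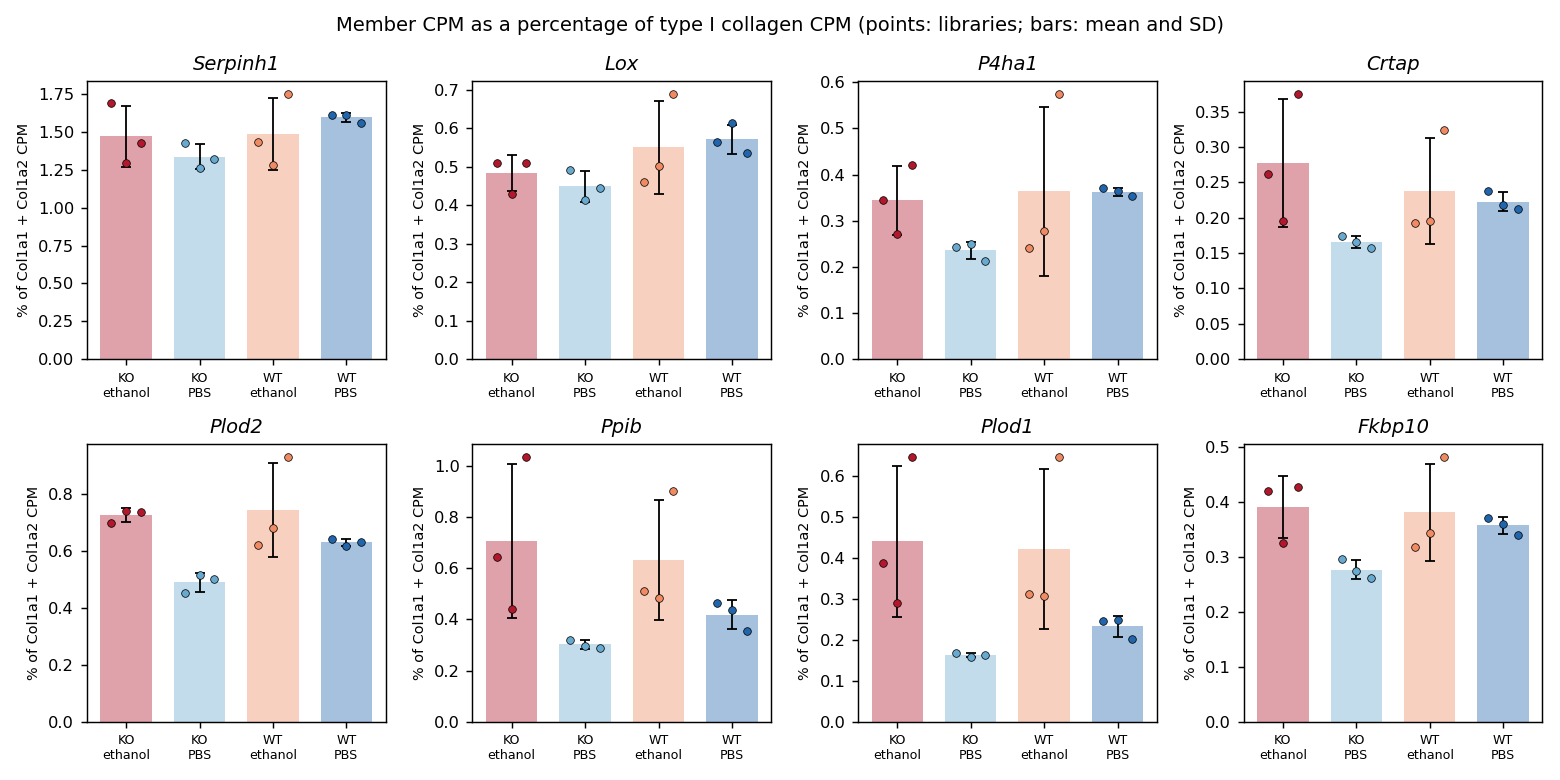
CPM of 8 of the genes as a percentage of the summed CPM of Col1a1 and Col1a2, per library (points), with group mean (bar) and SD (error bar), n = 3. Serpinh1 and Lox overlap between ethanol and PBS, while Plod1 and Ppib are higher in all ethanol libraries than in PBS libraries of the same genotype.

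Genes that act beside these 10 were grouped by role, and all values in this paragraph are averaged ethanol effects on the log2 scale. Of 14 other collagen modification enzymes and partners, 4 fell and 0 rose (list median -0.11). They were the lysyl oxidase-like gene Loxl4 (-0.97, adjusted p = 0.00272), the collagen galactosyltransferase Colgalt2 (-0.69, adjusted p = 0.0409), P3h4 (-0.48, adjusted p = 0.0221), a partner of lysyl hydroxylation, and the ER isomerase Fkbp14 (-0.48, adjusted p = 0.0166). Plod3, the third lysyl hydroxylase, was at -0.056 (adjusted p = 0.466). Of 9 fibrillar collagen genes, 2 fell and 0 rose (median -0.75): Col1a1, given above, and Col5a3 (-0.39, adjusted p = 0.0303).

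Of 14 genes for procollagen export and trimming, 8 fell and 0 rose (median -0.43). The largest falls were in Creb3l1, a transcription factor of the ER that drives secretory genes in mouse osteoblasts (-0.97, adjusted p = 0.00354), the C-propeptidase Bmp1 (-0.57, adjusted p = 0.0140), the N-propeptidase Adamts14 (-0.56, adjusted p = 0.0190) and Pcolce, an enhancer of C-propeptide removal (-0.53, adjusted p = 0.0178). Of 15 general ER chaperones, 6 fell and 0 rose (median -0.11), by smaller amounts: Hyou1 (-0.31, adjusted p = 0.00332), Sdf2l1 (-0.26, adjusted p = 0.00897), Pdia4 (-0.24, adjusted p = 0.0160) and Hspa5 (-0.20, adjusted p = 0.0130) had the largest changes. For comparison, the 10 genes had a median of -0.51.

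P4ha1, P4ha2, Plod2 and Lox are known targets of hypoxia-inducible factor, so 15 other hypoxia-inducible genes were read beside them. Of these, 2 fell, Ankrd37 (-0.90 on the log2 scale, adjusted p = 0.00353) and Adm (-0.73, adjusted p = 0.0161), and 1 rose, Mxi1 (0.15, adjusted p = 0.0290), in the averaged ethanol effect, and the list median was -0.17. The hydroxylases need iron and ascorbate and Lox needs copper. None of 8 genes that supply these cofactors was called (median -0.022), and the smallest adjusted p were those of the metal ion transporter Slc39a13 (-0.25 on the log2 scale, adjusted p = 0.0566) and the ascorbate transporter Slc23a2 (-0.14, adjusted p = 0.105). Of the genes in these 6 lists, ethanol in KO called Creb3l1 (-1.19 on the log2 scale, adjusted p = 0.0213), Sec24d (-0.54, adjusted p = 0.0161) and Kdelr2 (-0.52, adjusted p = 0.00477). Ethanol in WT called Loxl4 (-1.07 on the log2 scale, adjusted p = 0.0379), Ankrd37 (-1.03, adjusted p = 0.0381), Hyou1 (-0.41, adjusted p = 0.0254), Sdf2l1 (-0.41, adjusted p = 0.0298) and Kdelr2 (-0.40, adjusted p = 0.0227). The knockout comparisons and the interaction called 0 genes of these lists.

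Leaving out libraries 8, 9 and 12 was extended to these lists after the data were seen. In the averaged ethanol effect, 1 of the 4 called partners stayed called (Loxl4, log2 -0.96, adjusted p = 0.0294), as did 1 of the 2 fibrillar collagens (Col5a3, -0.49, adjusted p = 0.00195). Col1a1 was then at -0.60 (adjusted p = 0.261). Of the 8 called export and trimming genes 6 stayed called, while Creb3l1 (-0.89, adjusted p = 0.0676) and Pcolce (-0.39, adjusted p = 0.217) did not. Of the 6 called ER chaperones 3 stayed called, Hyou1, Sdf2l1 and Pdia4, and all 3 called hypoxia-inducible genes did. Genes called only then were Dnajc3, an ER co-chaperone (0.17, adjusted p = 0.0379), and Slc23a2 (-0.20, adjusted p = 0.0415). In WT, where library 7 is then the only PBS library, the log2 values were -1.05 for Loxl4, -1.21 for Ankrd37 and -0.35 for Hyou1. They were -0.42 for Sdf2l1, -0.27 for Kdelr2 and -0.58 for Col5a3. In KO, Sec24d and Kdelr2 stayed called and Creb3l1 (-1.19) did not. Adamts2, Adamts14, Bmp1, Sec23a, Fkbp14, Col5a3, Pdia4, Slc39a13 and Ankrd37 were called lower and Mxi1 higher only then. In that fit a larger share of all genes was called in KO than with all 12 libraries.

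**Figure D5:**
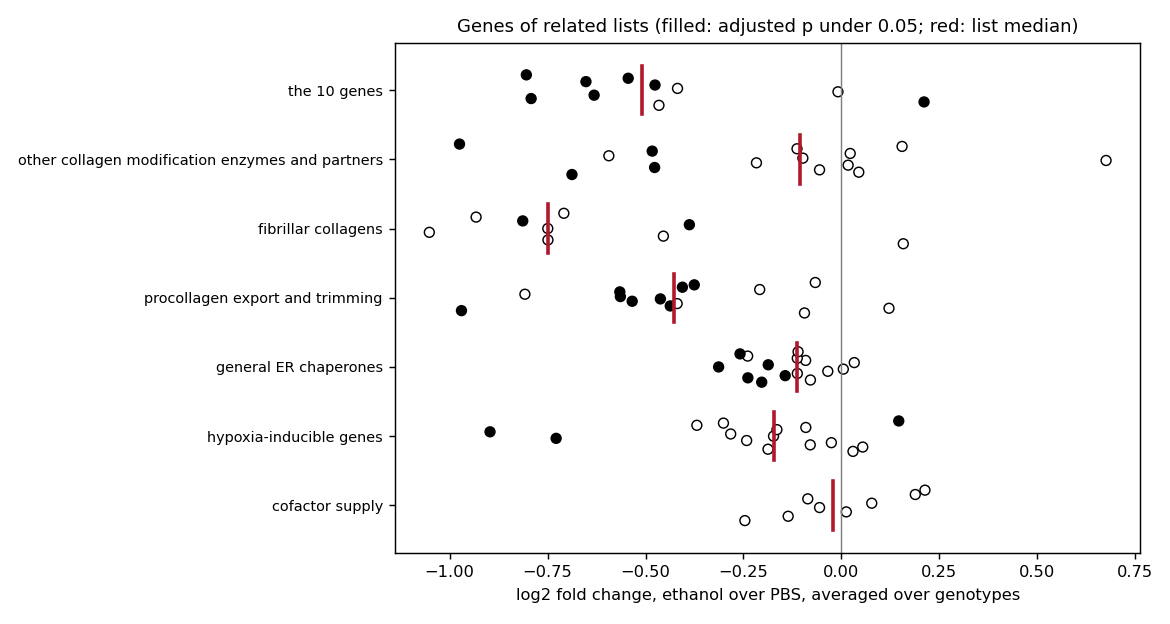
Averaged ethanol effect (log2 fold change, ethanol over PBS) of the 10 genes and of 6 lists of related genes, 1 point per gene, filled where the adjusted p was under 0.05, with the list median as a vertical mark. The median of the 10 genes, -0.51, lies between that of the fibrillar collagens, -0.75, and that of the export and trimming genes, -0.43.

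Osteoblast and osteoclast markers also differed after ethanol. All 9 osteoblast markers had lower levels after ethanol in the averaged effect, and 6 of them fell (list median -0.65 on the log2 scale). Together they took 0.255% to 0.293% of counts in KO ethanol and 0.355% to 0.456% in KO PBS libraries, and 0.225% to 0.350% in WT ethanol and 0.286% to 0.36% in WT PBS libraries. Of 8 osteoclast markers 2 rose, and together they took 0.191% to 0.230% of counts in KO ethanol and 0.167% to 0.200% in KO PBS libraries, and 0.235% to 0.330% in WT ethanol and 0.166% to 0.191% in WT PBS libraries. Of 6 osteocyte markers 1 fell, Phex, and 0 rose (list median -0.33), and together they took 0.183% to 0.340% of counts in KO ethanol and 0.278% to 0.316% in KO PBS libraries, and 0.225% to 0.302% in WT ethanol and 0.287% to 0.471% in WT PBS libraries. When libraries 8, 9 and 12 were left out, 2 of 9 osteoblast markers fell, 2 of 8 osteoclast markers rose and 0 of 6 osteocyte markers were called. The mean osteoblast marker level (log2 CPM) was 6.65 to 7.31 in ethanol and 7.54 to 7.95 in PBS libraries, without overlap. A fit with this level as a covariate therefore cannot separate its effect from that of ethanol. In that fit 0 of the 10 genes passed, where 1 gene of all tested did. Serpinh1 and Fkbp10 then had averaged ethanol effects of 0.18 each, Lox -0.025, Crtap -0.10, P4ha2 -0.24, P4ha1 -0.33, Plod1 0.27, P3h1 0.27, Plod2 0.59 and Ppib 0.11 on the log2 scale, with a median of 0.15 over the 10 genes. With the muscle markers as a covariate the same 7 genes passed.

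Across the 12 libraries, which share the ethanol and PBS groups, the log2 CPM of Serpinh1, Fkbp10 and Lox had Pearson correlations of 0.97 each with the mean osteoblast marker level. Crtap (0.96), P3h1 (0.95) and Plod2 (0.89) were close behind, P4ha1 (0.86) and P4ha2 (0.84) lower, Ppib at 0.38 and Plod1 at -0.63. Taken as deviations from group means, so that the group differences do not enter, the values were 0.89 to 0.94 for those first 6 genes, 0.52 for P4ha1, 0.54 for P4ha2, 0.57 for Ppib and 0.24 for Plod1. P4ha1 and P4ha2 were more alike with each other (0.94 as deviations) than with Serpinh1 (0.62 and 0.69). With the skeletal muscle markers, also as deviations, the correlations were 0.50 for P4ha1, 0.51 for P4ha2, 0.24 for Plod1 and -0.58 for Ppib. For the other 6 genes they ran from -0.18 to 0.056. Within the WT ethanol group, library 12 was the highest for P4ha1, P4ha2 and Plod1 and the lowest for the other 7 genes. These correlations are descriptions over 12 libraries that also differ in muscle content.

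The genes whose log2 CPM was most like each of the 10 over the 12 libraries were taken from 11597 genes with at least 5 CPM on average. Serpinh1 and Fkbp10 were nearest to Rcn3 (r = 0.99 for both), P3h1 to Fkbp7 (0.99), Crtap to Rcn1 (0.99), and Lox to Tmem119 (0.99), which was also among the 3 nearest of Serpinh1 and Fkbp10. Rcn1 and Rcn3 encode calcium-binding proteins of the secretory pathway and Tmem119 a membrane protein of osteoblasts. Plod2 was nearest to Rerg (0.98) and then to the collagen gene Col22a1 (0.96). P4ha1 was nearest to Cavin3 (0.97) and P4ha2 to Lgals1 (0.98). The nearest genes of Ppib were the ribosomal protein genes Rpl19 (0.90), Rps18 (0.89) and Rps10 (0.88), and those of Plod1 were Etfbkmt (0.94), Thap3 (0.94) and Fos (0.92).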

How the data were processed

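The authors deposited whole-number counts per Ensembl gene, not normalized. Trimmomatic 0.36, STAR 2.5.2b, featureCounts, Subread 1.5.2 and build GRCm38 are named in the submitters' processing notes, with settings, strand and annotation release not given in the sources used here. A normalized signal, also deposited by the authors, is the count divided by 1 constant per library, held for 17408 genes (mean count above 10), and served for gene names and 1 alternative. Positions and exon lengths were read from GENCODE M21 (GRCm38; 48970 of 49315 identifiers matched). Promoter windows came from RefSeq (GRCm38.p6). RNA of catalase knockout and wild-type femoral shafts was grouped by the labels' titles into 4 groups of 3 libraries, with totals of 19950222 to 28789308 counts. No 2 replicate libraries agreed within sampling noise (chi-square per gene 7.64 or more). No batch is labelled.

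filterByExpr (at least 10 counts, total at least 15) kept 18161 genes. TMM factors ran from 0.908 to 1.05. One edgeR 4.0.16 quasi-likelihood model in R 4.3.3 (robust; a coefficient for each group; common dispersion 0.0338; 8 residual degrees of freedom) gave the ethanol effect in each genotype and averaged, the knockout effects and the interaction. Genes with a Benjamini-Hochberg adjusted p under 0.05, over all genes tested, are the called ones. Every adjusted p is from this test unless another is named. The relation to collagen I was tested on log2 of CPM over Col1a1 plus Col1a2 CPM by exact two-sided permutation within genotypes, adjusted over all genes and not over the 10 genes as first planned. The methods were tested on simulated data.

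All 10 genes are named in every comparison. From each related list up to 4 called genes with the largest change are named or, with none called, up to 2 with the smallest p. P4hb and Plod3 were named after their values were seen. The 3 most alike genes per member were taken by Pearson r. The members, lists and tests were chosen with earlier results of these data known. Alternatives were RLE and upper-quartile factors, other count filters, DESeq2 1.42.0, voom and trend in limma 3.58.1, only the groups compared, muscle or osteoblast markers as covariates, libraries 8, 9 and 12 left out, each library left out, and Col1a1 alone or summed osteoblast markers in place of collagen I. Leaving out libraries 6 and 12, and the related lists without libraries 8, 9 and 12, were added after the data were seen.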

Additional observations from a re-analysis of the deposited data

How the results depend on the processing

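No paired analysis was possible because the groups share no replicate numbers. Averaged over genotypes, ethanol called 7 of the 10 genes and 1967 of all 18161 genes tested. Other factors, count filters, DESeq2, voom, trend and the muscle covariate called 5 to 8, 0 passed with osteoblast markers as a covariate and 3 (P4ha1, Crtap and Plod1) without libraries 8, 9 and 12. Leaving out 1 library gave 4 to 9, and leaving out libraries 6 and 12 gave 7. Over all genes, the other factors, filters and models and the muscle covariate called 1636 to 2752. Leaving out 1 library called 1040 to 2152 of all genes, and leaving out libraries 6 and 12 called 1304. The osteoblast marker level was lower in every ethanol library than in every PBS library, so that covariate is not separable from ethanol. With it the averaged effects of Serpinh1 (0.18, adjusted p = 0.726) and Fkbp10 (0.18, adjusted p = 0.631), both called before, changed sign and lost their calls. The uncalled values of P3h1 (0.27), Plod2 (0.59) and Ppib (0.11) also turned positive, with a median of 0.15 over the 10 genes. Ethanol in KO called 2 genes, and 1 without a count filter, 6 by DESeq2, 4 by voom and 1 with only the groups compared. It called 4 with the muscle covariate, 0 with the osteoblast covariate and 0 to 3 with 1 library left out. Over all genes ethanol in KO called 339, and 381 without a count filter, 986 by DESeq2, 455 by voom and 1677 with only the groups compared. It called 866 with the muscle covariate, 0 with the osteoblast covariate and 52 to 568 with 1 library left out. Ethanol in WT called 1, and 0 with upper-quartile factors, 3 by DESeq2, 0 by voom and 0 with only the groups compared. It called 2 with the muscle covariate, 0 with the osteoblast covariate and 0 to 2 with 1 library left out. Over all genes ethanol in WT called 229, and 186 with upper-quartile factors, 731 by DESeq2, 152 by voom and 4 with only the groups compared. It called 496 with the muscle covariate, 20 with the osteoblast covariate and 35 to 320 with 1 library left out. The knockout comparisons and the interaction called 0 under every alternative run, including each library left out (0 to 0). Per collagen I, 3 genes were called, and 0 to 5 with 1 library left out. Without libraries 8, 9 and 12 that test has fewer arrangements and a larger smallest p, so its calls are not comparable. Against summed osteoblast markers in place of collagen I, Serpinh1 (-0.40, adjusted p = 0.0289) and Lox (-0.39, adjusted p = 0.0412) were called lower in the permutation test. Against collagen I they were uncalled, at 0.0087 and 0.014. Plod2 (-0.015, adjusted p = 0.941) lost its call. The causes of these changes were not tested. Crtap and P4ha1 were called in the averaged effect in 22 of 23 alternatives, P4ha2, Lox and Plod1 in 21, Serpinh1 and Fkbp10 in 13, P3h1 in 6 and Plod2 in 1. Over the values of single genes, 1680 stayed on their side of the threshold, of which 122, uncalled in both settings, changed sign. Of the rest, 81 lost their call, 34 gained one and 5, called in 1 of the 2 settings, changed sign.

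Depth did not limit these genes, since the lowest count of any was 291. The limits are 3 pools per group, the muscle RNA in libraries 8, 9 and 12, and counting whose use of strand is not known, which bears on Ppib, Fkbp10 and Plod2.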
